A study of Mus musculus with 6 samples.

Results

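Expression of complement components, regulators and receptors was examined in fibroblasts sorted by flow cytometry from mouse synovium, the membrane that lines the joint. The set was a list of 35 gene symbols, and a row with the same symbol was found for 32 of them among the 24348 genes of the count table. C1qa, C6 and C3ar1 had no row there and were not analysed here. Both groups were adult wild-type C57BL/6 mice that received an injection into a vein. The IC group (n = 3 libraries) received immune complexes, which the study made by incubating ovalbumin with rabbit antibody against ovalbumin, and the vehicle group (n = 3) received the control injection. RNA of the sorted cells was sequenced after removal of ribosomal RNA. The time from injection to dissection, the gate used for fibroblasts and the number of mice behind each library were not given in the sources used here. The p-values therefore measure the spread between these libraries, which may be in part technical.

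Complement is a cascade of plasma and cell surface proteins that marks targets for uptake, releases fragments that attract and activate leukocytes, and can open pores in membranes. It is started by the classical pathway, when C1q binds antibody in immune complexes, by the lectin pathway, when collectins bind sugars, and by the alternative pathway, which amplifies deposited C3. The liver makes most of the plasma proteins, and fibroblasts and macrophages in tissues make a share of them locally, the synovium included.

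A few complement transcripts were abundant in these cells, and 1 of the 30 members tested was called after IC. The genes for C3, for the proteases C1r and C1s, for C4 and for the C1 inhibitor stood at the top of the list in all 6 libraries, whereas the subunits of C1q and the C5a receptors were close to or at 0. C7, a component of the membrane attack complex, rose 1.32-fold (95% interval 1.18 to 1.48) after IC and was the member called by DESeq2 at an adjusted p under 0.05. No member was called lower. Over all 19925 genes tested, 2.1% were called in either direction and 1.03% were called higher. The quasi-likelihood test of edgeR called no member, against 0.186% of all genes. At an unadjusted p under 0.05 it gave 7 members, against 9.64% of all genes, and DESeq2 gave 8 (3 higher and 5 lower after IC), against 9.8%.

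The total counts were 43577433, 45914945 and 54025183 in IC replicates 1 to 3, and 56714304, 52166816 and 40114331 in vehicle replicates 1 to 3, so that depth overlapped between the groups. Vehicle replicate 2 stood apart, with a value of 0.908 on the first surrogate variable of the table (a pattern across genes that treatment does not account for), against −0.262 to −0.129 in the other 5 libraries. A fit with that variable as a term is therefore close to one without vehicle replicate 2. The label of the cells was checked on marker genes. All 10 fibroblast markers were present, with summed levels of 50440 to 53128 CPM (counts scaled to 1000000 per library) in IC and of 52738 to 64622 in vehicle libraries, and 3 of them (Col3a1, Lum and Fn1) were called lower after IC. Of 20 macrophage markers 13 were in the table, and their sum was 48.3 to 70.2 CPM in IC and 57.4 to 69.3 in vehicle libraries. Adgre1, Ptprc and Tyrobp, which define macrophages or leukocytes, had no row, and Cx3cr1, Folr2, Ctss and Laptm5 were at 0 in at least 1 library. The other macrophage markers were present in every library, with Cd68 at 21.9 to 31.4, Mertk at 12.7 to 16.6 and Lyve1 at 8.13 to 18.6 CPM. Neutrophil markers (4 of 10 in the table) summed to at most 1.06 CPM, with S100a8, Mpo and Camp at 0 in at least 1 library. S100a8 was above 0 in all 3 IC libraries, at 0.261 CPM or less, and at 0 in all 3 vehicle libraries, too few counts to be tested. Elane, the 1 neutrophil marker tested, had a change of −0.69 and received no adjusted p from DESeq2. The 14 endothelial markers summed to 262 to 350 CPM in IC and 364 to 419 in vehicle libraries, and Cdh5, Kdr and Cldn5 were called lower.

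Markers of other cells that a sort can carry over also differed between the groups. All 12 skeletal muscle markers had a change below 0 (median −1.82), with a sum of 21.3 to 41.6 CPM in IC and 37.8 to 89.8 in vehicle libraries, and Ttn, Myh1 and Actn3 were called lower. Chondrocyte markers (10 in the table) summed to 794 to 903 CPM in IC and 508 to 743 in vehicle libraries, with Acan called higher. Comp alone was at 366 to 720 CPM. Of the 9 tested, 4 had a change above 0 and 5 below (median −0.0024). Col2a1 was among those below, at −0.75 (DESeq2 adjusted p = 0.107). Mural cell markers (9) summed to 501 to 617 and 620 to 668 CPM, with Myh11 called lower. The 4 lymphocyte markers in the table (of 10) were low, at 3.57 to 4.93 and 7.18 to 10.5 CPM, with Ighm called lower, Trac at 0 in at least 1 library and no row for Cd3e. Schwann cell markers (10) summed to 248.8 to 375 and 271 to 303 CPM, with none called. Of the fibroblast subsets, lining markers (8) summed to 1927 to 2192 CPM in IC and 1761 to 2293 in vehicle libraries, with Prg4 called higher and Tspan15 and Clic5 lower, and sublining markers (10) to 4919 to 5830 and 5053 to 5922 CPM, with Apoe called lower. No marker was called by edgeR. The part of these differences in the results of the members was not tested.

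The members held 0.806% to 0.914% of all counts in IC and 0.758% to 0.999% in vehicle libraries. Levels of different genes were compared as TPM, which are counts divided by the exon length of the gene and scaled to 1000000 within each library. C3, the central protein that all pathways cleave, had the highest level, at 4172 ± 373 TPM in IC and 4327 ± 685 in vehicle libraries (SD, n = 3 each), and took 57.3% to 60.3% of the counts of all members. Serping1, which encodes the C1 inhibitor, followed with 1409 ± 130 and 1502 ± 211 TPM. C1s1 came next at 997 ± 25.5 and 1105 ± 75.1 TPM. These 3 genes kept their order in every library, since the ranges of neighbours in the order did not overlap. C1s1 and C4b overlapped each other, with C4b at 810 ± 73.1 and 834 ± 199 TPM, and both were above C1ra at 384 ± 18.5 and 458 ± 61.0 TPM.

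A second tier lay near 100 TPM. C7 at a mean of 109 TPM over the 6 libraries, C1qtnf6 at 101, Clu at 98.4 and Colec12 at 91.0 overlapped their neighbours in the order. Vtn, at 63.4 TPM, was below all 4 means. Its range of 45.7 to 75.5 TPM did not reach that of Colec12 but overlapped that of Clu (54.0 to 129 TPM). The next members by mean level were C1qtnf12 at 41.1, C1qbp at 38.4, Cr1l at 32.7, C2 at 26.7 and Cfp at 20.6 TPM. Cfb, Csmd1, C1rl and Masp1 lay between 11.3 and 13.2 TPM. Cd46, C4a, Cd93, Cfd, Colec11 and Cd59a lay between 1.75 and 6.13 TPM, and C5ar2, Masp2, C8g, C5ar1 and Cfi between 0.378 and 0.749 TPM. C1qc at 0.174 and C1qb at 0.161 TPM were the lowest. With the longest transcript as the length, or with no length at all, 9 of the 10 highest members were the same and Vtn was the one lost.

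**Figure D1:**
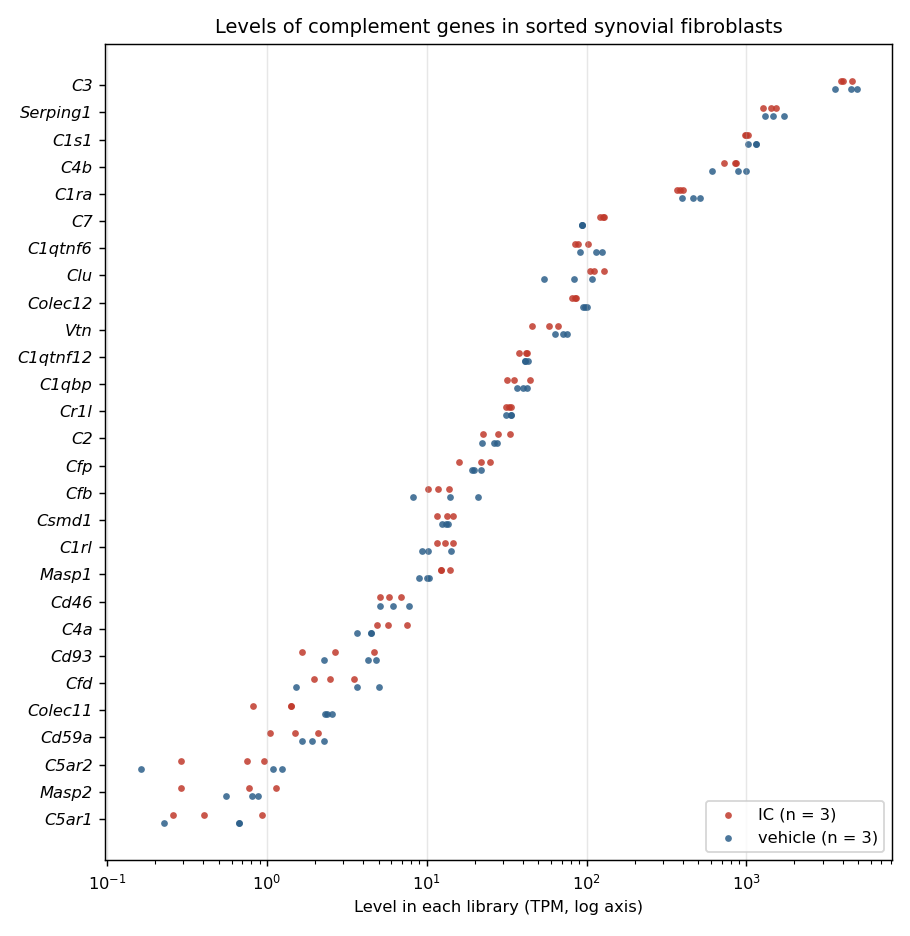
Levels of the 28 complement genes with a count above 0 in all 6 libraries, ordered by mean TPM. Each point is 1 library on a log axis (red, IC, n = 3; blue, vehicle, n = 3). C3 lies at 3570 to 4902 TPM and C5ar1 below 1 TPM, and the red and blue points of most genes overlap.

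For the comparison of IC with vehicle, normalized counts are the raw counts of a library over its DESeq2 size factor, and changes are log2 fold changes of IC over vehicle with their standard error. The median change of the 30 tested members was −0.09, against −0.0019 over all genes tested. DESeq2 gave an adjusted p to 23 members, and 7 members with few counts were tested without one (C8g, Cfd, Cfi, C5ar1, C5ar2, Masp2 and Colec11). The 23 members changed by −0.36 to 0.51, with 7 above 0 and 16 below. The median of their absolute changes was 0.20, against 0.13 over all genes with an adjusted p. In 15 of the 23 the 95% interval of the change stayed within 1.5-fold in either direction. For such members a larger change of the mean is outside the interval, whereas for the other 8 the libraries did not limit it that far. In bulk RNA of sorted cells, a change in the number of cells that express a gene and a change in RNA per cell cannot be told apart.

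**Figure D2:**
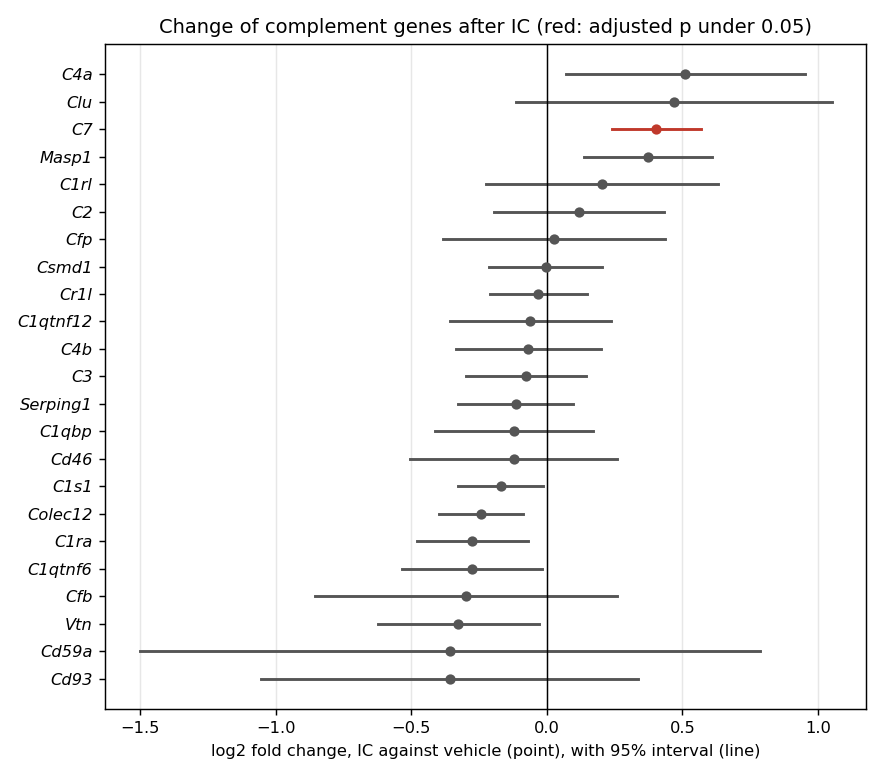
Log2 fold change of IC over vehicle (point) and its 95% interval (line) for the 23 members with an adjusted p, from C4a at 0.51 to Cd93 at −0.36. C7, in red, is the one with an adjusted p under 0.05, and its interval (0.24 to 0.57) is among the narrow ones.

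The classical pathway begins with C1, in which C1q recognizes antibody and the proteases C1r and C1s carry out cleavage. The recognition subunits were close to absent. C1qb had 2, 1 and 4 raw counts in IC replicates 1 to 3 and 3, 0 and 2 in vehicle replicates 1 to 3. C1qc had 4, 4 and 10 counts in IC and 6, 0 and 0 in vehicle libraries. Neither passed the filter of 10 counts in 3 libraries, and a count of 0 in vehicle replicate 2 allows up to 0.0575 CPM, from counting error alone. C1q is made mainly by macrophages, whose markers were at the levels given above.

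The proteases were abundant. C1s1, which cleaves C4 and C2, had 33731, 33836 and 36135 normalized counts in IC replicates 1 to 3 and 35065, 40752 and 40887 in vehicle replicates 1 to 3. The groups overlapped, since vehicle replicate 1 lay below IC replicate 3, and the change was −0.17 ± 0.08 (SE, adjusted p = 0.366). C1ra, which activates C1s, had 12699.8, 11892 and 13527 normalized counts in IC and 12886, 17470.1 and 15731 in vehicle libraries. Vehicle replicate 1 was again among the IC values, and the change was −0.27 ± 0.10 (adjusted p = 0.174). Without vehicle replicate 1 both genes were called lower, with changes of −0.24 (adjusted p = 0.0110) for C1s1 and −0.39 (adjusted p = 0.000589) for C1ra. Without vehicle replicate 2 neither was called, and C1ra was at −0.17 (adjusted p = 0.716) and C1s1 at −0.13 (0.755). With the surrogate variable as a term C1ra was at −0.18 (0.560) and C1s1 at −0.13 (0.677). This is not a separate check from leaving out vehicle replicate 2, which that variable mainly marks. C1rl, a related protease, had 388 to 496 normalized counts in IC and 308 to 486 in vehicle libraries, with a change of 0.20 ± 0.22 (adjusted p = 0.857). The counts of C1ra and C1s1 also depend on how reads of close copies were assigned, since 26.3% of the 150-base windows of the C1ra transcript occur unchanged in C1rb, and 2.86% of those of C1s1 in C1s2. Of the C1s1 exon sequence, 18.4% lies opposite exons of Gm16567, so that its counts depend in part on the use of strand in counting.

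C4 and C2 form the C3 convertase of the classical and lectin pathways. C4b, which encodes mouse C4, had 45717, 53290.0 and 54306 normalized counts in IC replicates 1 to 3 and 38365, 64852 and 57434 in vehicle replicates 1 to 3. The 3 IC values lay inside the vehicle range, and the change was −0.07 ± 0.14 (adjusted p = 0.946). C2 had 967 to 1449 normalized counts in IC and 973 to 1211 in vehicle libraries, with a change of 0.12 ± 0.16 (adjusted p = 0.898). C4a encodes the sex-limited protein, a close relative of C4 that C1s does not cleave. Its normalized counts were 393, 333 and 522 in IC and 306, 315 and 255 in vehicle libraries. All 3 IC values were above the vehicle values, but IC replicate 2 only narrowly so, and the change was 0.51 ± 0.22 (adjusted p = 0.297). It shrank to 0.31 (adjusted p = 0.771) when IC replicate 3 was left out.

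The pair illustrates how similar the transcripts are that reads had to tell apart. The longest annotated transcripts of C4a and C4b were 96.1% identical over 5367 aligned positions, and 8.27% of the 150-base windows of C4a occur unchanged in C4b. The stretch of 60 bases shown here (transcript positions 2755 to 2814 of C4a and 2761 to 2820 of C4b, GENCODE M21, sense strand) holds 13 of the 207 differences, in capitals.
C4a: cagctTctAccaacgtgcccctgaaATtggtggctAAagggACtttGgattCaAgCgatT
C4b: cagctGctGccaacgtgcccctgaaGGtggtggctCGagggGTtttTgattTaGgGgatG
Where the sequences are the same over the length of a read, a read of C4b could be assigned to C4a or left out, depending on the counting. C4b had more than 100 times the normalized counts of C4a, and how much of the C4a values came from reads of C4b was not tested. C4b, C4a, Cfb and C2 lie in 1 stretch of chromosome 17, with 65210 bases from C4b to C4a, 32910 from C4a to Cfb and 86 from Cfb to C2. A readthrough gene, Gm20547, shares 80.7% of the 150-base windows of Cfb and 48.3% of those of C2. It lies on the same strand and had no row in the count table. The counts and levels of Cfb and C2 therefore depend on how shared reads were assigned or left out, which was not tested.

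In the lectin pathway, the serine protease gene Masp1 was higher after IC in each library but did not pass the adjusted threshold. Masp1 had 1340.0, 1490.4 and 1352 normalized counts in IC replicates 1 to 3 and 1121, 998 and 1113 in vehicle replicates 1 to 3. The groups did not overlap, and the change was 0.37 ± 0.12 (adjusted p = 0.0681 with DESeq2 and 0.204 with edgeR). Masp2, which cleaves C4 and C2, had 10.8 to 41.9 normalized counts in IC and 20.7 to 33.1 in vehicle libraries, too few to receive an adjusted p. In all, 54.9% of the Masp2 exon sequence lies opposite exons of Tardbp, so that these counts depend on the use of strand in counting, which was not stated.

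For both collectin genes among the members the IC values lay below the vehicle values. Colec10, a collectin gene that is not a member, did not follow. It had 163 to 216 normalized counts in IC and 123 to 167 in vehicle libraries, with a change of 0.37 ± 0.28 (DESeq2 adjusted p = 0.720). Colec12, a membrane-bound scavenger receptor with a collectin domain, had 8134, 7728 and 8503 normalized counts in IC replicates 1 to 3 and 9127, 10011 and 9677 in vehicle replicates 1 to 3. The groups did not overlap, and the change was −0.24 ± 0.08 (adjusted p = 0.0712 with DESeq2 and 0.260 with edgeR). It was called lower with total-count scaling (adjusted p = 0.0405), among genes with a mean of at least 100 (0.0478), without IC replicate 3 (0.0454) and without vehicle replicate 1 (0.0122). At the threshold of 0.05 the other alternatives did not call Colec12. Adjusted p-values there included 0.203 with limma-voom, 0.241 with the replicate block and 0.216 with 1 surrogate variable. Without IC replicate 2 the change was −0.21 (0.326), and without vehicle replicate 2 it was also −0.21 (0.287). Colec11, a soluble collectin that carries the MASP proteases, had 25.3, 14.5 and 26 normalized counts in IC and 42.6, 47.2 and 42.6 in vehicle libraries. These groups did not overlap either, but at so few counts the change of −1.01 ± 0.60 received no adjusted p from DESeq2 and had one of 0.608 with edgeR.

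Of the 30 tested members, C7, Masp1 and C4a were higher in all 3 IC libraries than in any vehicle library, against 8.09% of all genes tested. Colec12 and Colec11 were lower in all 3, against 7.67% of all genes.

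**Figure D3:**
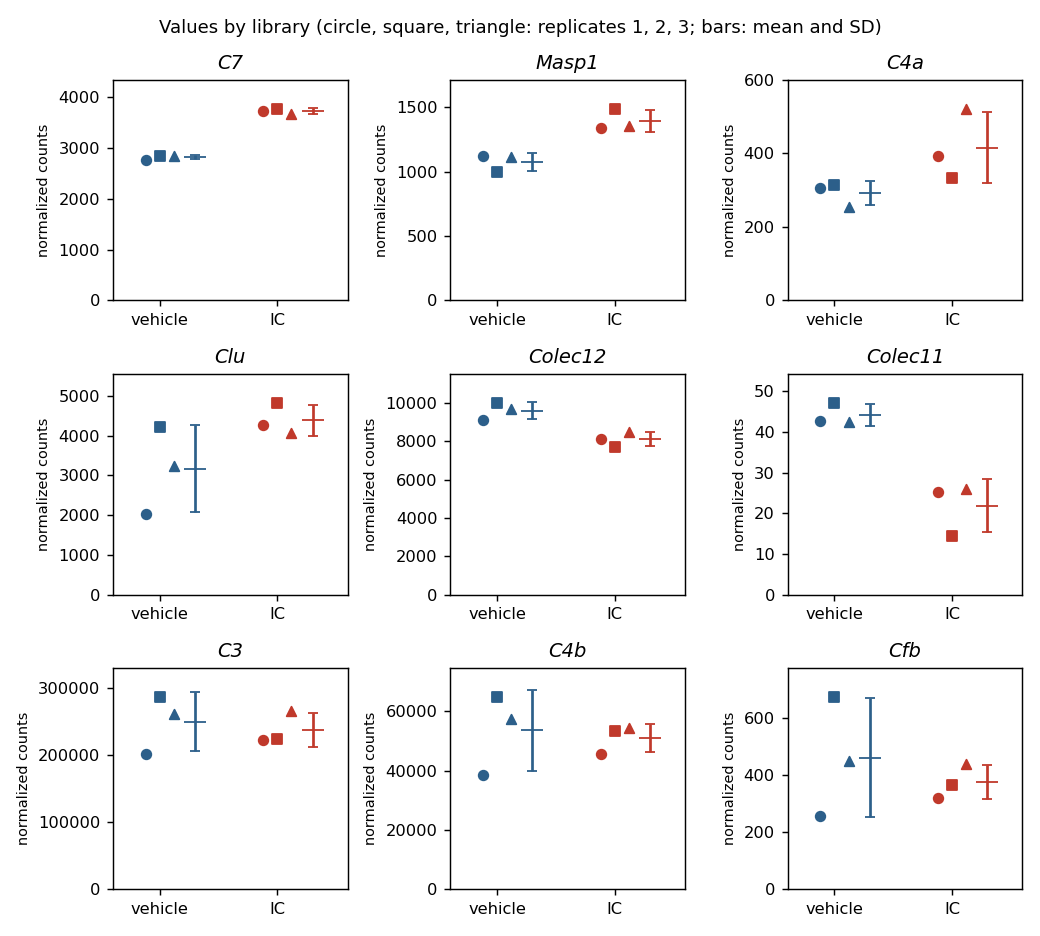
Normalized counts of 9 members in each library (circle, square and triangle for replicates 1, 2 and 3; red, IC; blue, vehicle), with the mean and SD (n = 3) beside them and each axis starting at 0. C7, Masp1, C4a, Colec12 and Colec11 show no overlap between groups, whereas Clu, C3, C4b and Cfb overlap and spread widely in vehicle.

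C3 and the genes of the alternative pathway did not pass the test in either direction. C3 had 222701, 224412 and 266618 normalized counts in IC replicates 1 to 3 and 201918, 287288 and 262570.0 in vehicle replicates 1 to 3. IC values lay inside the vehicle range, and the change was −0.07 ± 0.11 (adjusted p = 0.916), with a 95% interval of 0.81- to 1.11-fold. Cfb, which encodes the protease part of the alternative convertase, had 319.6, 365 and 438 normalized counts in IC and 257, 674 and 449.9 in vehicle libraries. The vehicle values of Cfb spread over more than the whole IC range, and its change of −0.30 ± 0.28 (adjusted p = 0.831) was poorly determined. Cfd, the adipocyte-rich protease that cleaves factor B, had 25.3, 35.1 and 20.6 normalized counts in IC and 36.9, 16.1 and 52.3 in vehicle libraries, and received no adjusted p. The 11 adipocyte markers in the table summed to 468 to 549 CPM in IC and 561 to 698 in vehicle libraries, mostly Lpl, which was called lower, and Adipoq was at 0 in at least 1 library. Cfp, which encodes properdin, the stabilizer of the convertase, had 311 to 473 normalized counts in IC and 365 to 427 in vehicle libraries (change 0.03 ± 0.21, adjusted p = 0.992).

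C7, of the terminal pathway, was the member called higher. Its product binds the C5b-C6 complex and anchors it to membranes. C7 had 3726, 3768 and 3667 normalized counts in IC replicates 1 to 3 and 2762, 2836 and 2835 in vehicle replicates 1 to 3. The lowest IC library was above the highest vehicle library by far more than the spread within either group, in which the highest value was 1.03 times the lowest. The change was 0.40 ± 0.08 (adjusted p = 0.000280 with DESeq2). With edgeR the fold change was the same, at 0.40, and its adjusted p of 0.0537 missed the threshold, whereas limma-voom gave 0.0436. Leaving out each library in turn gave changes of 0.39 to 0.42 with adjusted p-values of 0.000390 to 0.00550. The gene spans chr15:4988762-5063740 on the minus strand of GRCm38 and shares no exon sequence with another annotated gene. C8g, a chain of C8, had 9.30 to 12.1 normalized counts in IC and 0 to 17.0 in vehicle libraries.

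Promoters are shown for the member that was called and for the member with the highest level, from the RefSeq table (GRCm38.p6, 250 bases before to 50 bases after the start, written 5′ to 3′ on the minus strand, on which both genes lie). Letters in capitals match the gamma-activated site TTCNNNGAA, which STAT factors bind, in C7 (chr15:5063724-5064023), and an NF-kB pattern, GGGA then 4 bases of any kind then CC on either strand, in C3 (chr17:57228087-57228386).
C7: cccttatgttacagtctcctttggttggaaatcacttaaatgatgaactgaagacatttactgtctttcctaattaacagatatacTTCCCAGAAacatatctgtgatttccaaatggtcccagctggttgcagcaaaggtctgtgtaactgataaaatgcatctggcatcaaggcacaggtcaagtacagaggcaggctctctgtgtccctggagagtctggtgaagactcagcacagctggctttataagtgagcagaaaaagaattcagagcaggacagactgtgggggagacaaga
C3: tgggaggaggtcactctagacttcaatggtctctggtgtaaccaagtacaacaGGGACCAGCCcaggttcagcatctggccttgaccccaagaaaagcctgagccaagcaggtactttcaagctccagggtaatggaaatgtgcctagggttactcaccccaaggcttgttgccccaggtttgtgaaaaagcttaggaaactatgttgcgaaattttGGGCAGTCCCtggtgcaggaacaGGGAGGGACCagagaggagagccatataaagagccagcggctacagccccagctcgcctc
The C7 match starts at base −164 from the start, and those of C3 at −197, −33 and −10. The table held 23 promoters of 20 members. Serping1, C4b, Clu, C4a, Masp1 and Colec12 were among the members without one, so that the shares below cover a part of the set. The gamma-activated pattern was found in 5 of the 23 (21.7%), against 8.30% of all 32851 promoters, namely in C1ra, C7, Colec11, Masp2 and Vtn. The NF-kB pattern was found in 7 (30.4%), against 20.7%. These 7 belong to 6 members, since overlapping promoters of C1s1 hold the same site. An interferon-stimulated response element, written as GAAA, 2 bases of any kind and GAAA on either strand, was found in 4 (17.4%), against 3.44%, namely in Cd46, Cd59a, Colec11 and Vtn. In Colec11 it overlapped the gamma-activated pattern. A match is a string of letters, and binding was not measured.

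The soluble regulators differed in how their libraries spread. Serping1, whose product inactivates C1r, C1s and the MASP proteases, had 39389.7, 32266 and 37260.1 normalized counts in IC replicates 1 to 3 and 33378, 45709 and 38839.5 in vehicle replicates 1 to 3. The groups overlapped, and the change was −0.11 ± 0.11 (adjusted p = 0.826). Vtn, which encodes vitronectin, an inhibitor of membrane insertion of the terminal complex, had 1304, 1013 and 1513 normalized counts in IC and 1419, 1747 and 1634 in vehicle libraries. IC replicate 3 overlapped the vehicle values, and the change was −0.33 ± 0.15 (adjusted p = 0.352). It was −0.18 (adjusted p = 0.875) without IC replicate 2 and −0.47 (0.113) without IC replicate 3. Cfi, the protease that inactivates C3b and C4b, had 0 to 13.4 normalized counts in IC and 4.92 to 18.2 in vehicle libraries.

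Clu, which encodes clusterin, another inhibitor of the terminal complex, gave a result that depended on which vehicle libraries were used. Clu had 4261, 4830.0 and 4060.3 normalized counts in IC replicates 1 to 3 and 2041, 4221 and 3236 in vehicle replicates 1 to 3. Vehicle replicate 2 lay among the IC values, and vehicle replicate 1 was at less than 0.5 times it. The change was 0.47 ± 0.30 (adjusted p = 0.618). Without vehicle replicate 2 the change was 0.74 and called (adjusted p = 0.00329). With the surrogate variable as a term it was 0.72 (0.000576). That variable mainly marks vehicle replicate 2, so these fits are not separate checks. Without vehicle replicate 1 the change was 0.23 and not called.

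Membrane regulators showed no call. Cr1l, the rodent regulator Crry that limits C3 deposition on host cells, had 3586 to 3919 normalized counts in IC and 3541 to 3989.9 in vehicle libraries. Its change was −0.03 ± 0.09 (adjusted p = 0.971), with an interval of 0.86- to 1.11-fold. Cd46, a cofactor for factor I, had 436 to 568 normalized counts in IC and 444 to 652 in vehicle libraries (change −0.12 ± 0.19, adjusted p = 0.925), and 14.2% of its exon sequence lies opposite A330023F24Rik. Csmd1, a large membrane protein with complement control domains, had 2482 to 3033 normalized counts in IC and 2593 to 2938 in vehicle libraries (change −0.0037 ± 0.11, adjusted p = 0.998). Cd59a, which blocks the terminal complex at the membrane, had 20.7 to 41.9 normalized counts in IC and 34.0 to 45.1 in vehicle libraries, and its interval of 0.35- to 1.72-fold was wide.

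The receptors for complement fragments were low. C5ar1, the C5a receptor of myeloid cells, had 7.24 to 26.4 normalized counts in IC and 6.61 to 19.5 in vehicle libraries, and C5ar2, a second C5a receptor, had 11.6 to 37.2 and 6.61 to 49.9. Both were tested without an adjusted p. Cd93, a membrane protein of endothelial and myeloid cells first described as a C1q receptor, had 125 to 346 normalized counts in IC and 174 to 355 in vehicle libraries (change −0.36 ± 0.35, adjusted p = 0.840). The spread of Cd93 within each group was more than 2-fold. C1qbp, a mainly mitochondrial protein that also binds C1q, had 992 to 1418 normalized counts in IC and 1190.2 to 1326 in vehicle libraries (change −0.12 ± 0.15, adjusted p = 0.883).

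The proteins with a C1q-like domain are secreted and are not part of C1. C1qtnf6 had 2544, 2605 and 3111 normalized counts in IC replicates 1 to 3 and 2688, 3829 and 3487 in vehicle replicates 1 to 3. Vehicle replicate 1 lay among the IC values, and the change was −0.28 ± 0.13 (adjusted p = 0.375). Without vehicle replicate 1 it was −0.41 and called lower (adjusted p = 0.0157). Without vehicle replicate 2 it was −0.16 (0.868), and with the surrogate variable, which mainly marks that library, −0.17 (0.804). C1qtnf12 had 560.2 to 651 normalized counts in IC and 617 to 667 in vehicle libraries (change −0.06 ± 0.15, adjusted p = 0.962).

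The vehicle libraries differed in one direction across the abundant members. Among the 10 members with the highest level, vehicle replicate 1 was the lowest vehicle library in all 10 and vehicle replicate 2 the highest in 9, with C1s1 as the exception. The highest vehicle library exceeded the lowest by more than 1.2 times in 7 of the 10, and the same was true of the IC libraries in 3. The ratio of highest to lowest vehicle library was 2.07 for Clu, 1.69 for C4b, 1.42 for C3 and 1.03 for C7. These genes are not independent of each other, since they come from the same 3 libraries. Summed fibroblast markers had the same order, with 52738 CPM in vehicle replicate 1, 61840 in vehicle replicate 3 and 64622 in vehicle replicate 2. The part of this in the results of the members was not tested. The number of members called was 1 with all libraries, 6 without vehicle replicate 1 (C7 and Masp1 higher, and C1ra, C1s1, Colec12 and C1qtnf6 lower) and 2 without vehicle replicate 2 (C7 and Clu, both higher). Over all genes, 677 (3.52%) were called without vehicle replicate 1 and 281 (1.45%) without vehicle replicate 2, against 419 with all libraries.

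**Figure D4:**
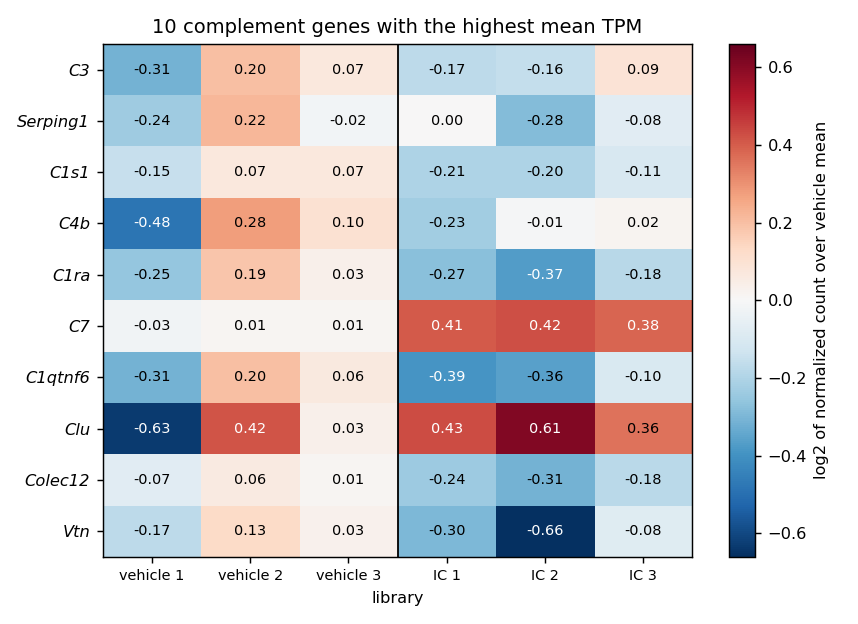
Normalized counts of the 10 members with the highest mean TPM in each library, as log2 of the ratio to the vehicle mean (blue, below; red, above). Vehicle replicate 1 is below and vehicle replicate 2 above the vehicle mean in all 10, most for Clu (−0.63 and 0.42), and C7 is at 0.38 to 0.42 in the 3 IC libraries.

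**Figure D5:**
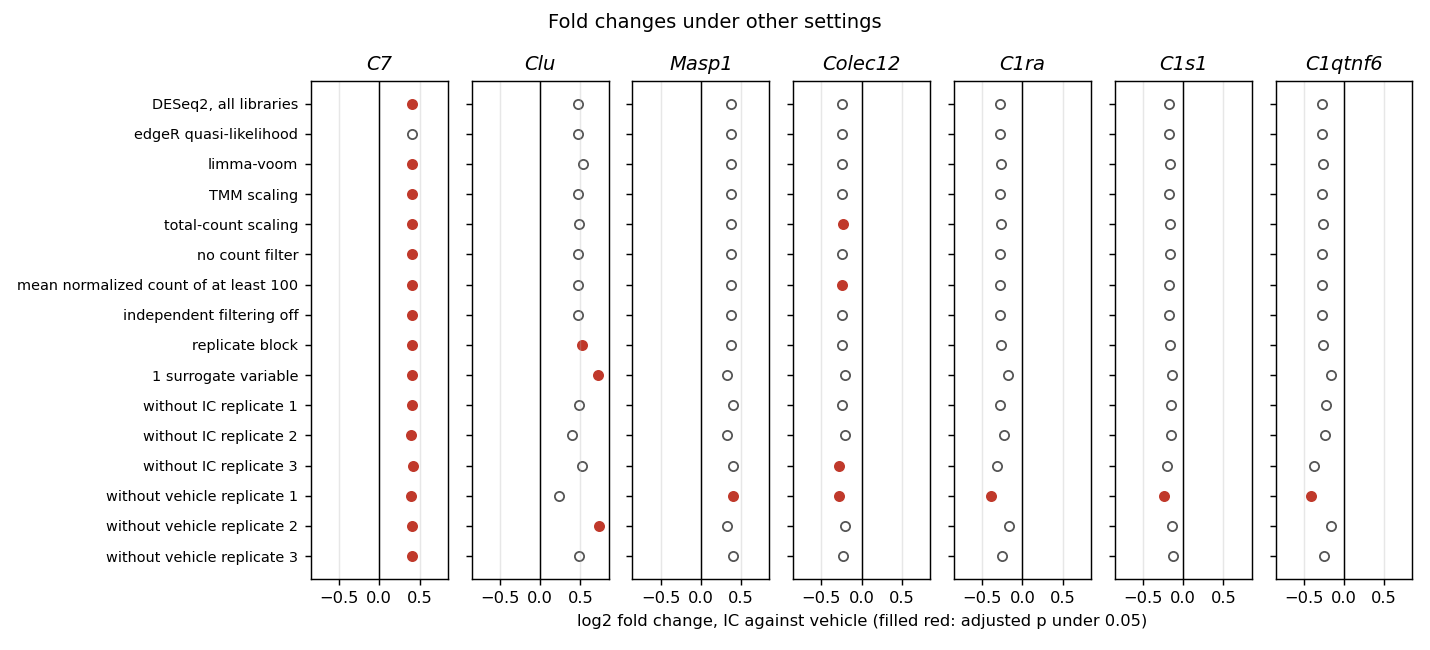
Log2 fold change of IC over vehicle for 7 members under the DESeq2 fit and 15 alternatives. Filled red points have an adjusted p under 0.05, and C7 is filled in all settings but edgeR, whereas C1ra, C1s1 and C1qtnf6 are filled without vehicle replicate 1 only.

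Further genes of the pathway that are not members were read from a list of 29 complement genes. Of these 12 were in the table and 8 were tested, and none was called by DESeq2 or by edgeR. Their median change was 0.14, against −0.0019 over all genes tested. Of the 8, Susd4, a membrane protein with complement control domains, had an unadjusted p under 0.05 (DESeq2), with a change of −0.61 ± 0.27 (adjusted p = 0.308). Cd55, a regulator that speeds the decay of convertases, had a change of 0.08 ± 0.08 (adjusted p = 0.849). Its level of 229 TPM lay between those of C1ra and C7.

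Among 25 other genes of the C1q and TNF superfamily, 20 were in the table, 19 were tested and 2 were called, both lower. Over all genes tested, 2.1% were called by DESeq2 in either direction. The median change of this list was −0.012. C1qtnf3, a secreted C1q-like protein of cartilage and mesenchymal cells, had 231, 159 and 180.1 normalized counts in IC and 455, 566 and 374 in vehicle libraries, without overlap. Its change was −1.29 ± 0.24 (adjusted p = 1.96e-05 with DESeq2 and 0.0488 with edgeR). Mmrn1, which encodes multimerin 1, a protein of platelets and endothelium, changed by −0.64 ± 0.17 (adjusted p = 0.0141 with DESeq2 and 0.252 with edgeR), beside the lower endothelial marker sum given above. The part of that sum in the change was not tested.

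Contact, coagulation and fibrinolysis genes are proteolytic cascades that share inhibitors with complement. Of 32 listed, 26 were in the table, 23 were tested and 2 were called by DESeq2, against 2.1% of all genes tested. Their median change was 0.03 over the 23 tested. Plaur, the urokinase receptor, rose by 0.57 ± 0.15 (adjusted p = 0.00932), from 679.7 to 904 normalized counts in vehicle to 1132 to 1337 in IC libraries. Bdkrb1, the bradykinin B1 receptor, changed by −1.80 ± 0.46 (adjusted p = 0.00707), from 98.2 to 116 in vehicle to 17.0 to 37.5 in IC libraries. Neither was called by edgeR, with adjusted p-values of 0.125 and 0.118.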

How the data were processed

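Total RNA of sorted synovial fibroblasts was sequenced as 6 paired-end libraries (3 IC, 3 vehicle, grouped by title). The deposited table holds raw read counts per gene symbol. The authors obtained these counts by trimming with Trim Galore, alignment to mm10 with HISAT2 and counting with featureCounts. Versions, annotation and strand setting were not given in the sources used here, and 2 different library kits are named. The methods of the study name DESeq2 and sva, the latter with no number of surrogate variables, so it served as an alternative.

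The 19925 of 24348 genes that reached 10 counts in 3 or more libraries were tested with DESeq2 (1.42.0) with treatment as the only term. Calls required a Benjamini-Hochberg adjusted p, over all genes, under 0.05. DESeq2 gave no adjusted p to 3870 of them. Counts per library ranged from 40114331 to 56714304, and intervals are at 95%. Alternatives were edgeR (4.0.16), limma-voom (3.58.1), TMM or total-count scaling, other filters, 1 surrogate variable from sva (3.50.0), a replicate block, each library left out in turn and an adjusted p under 0.1. Fits were checked on data with known answers. TPM used GENCODE M21 exon lengths, matched by symbol for 98.1% of genes.

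Members and lists were chosen with earlier results of these data known. The values of every library are given for members called, for those whose groups did not overlap, for the 10 highest by mean TPM, and for C1q subunits, C3, C4b, Cfb, Cfd and Serping1. Other members are given by range, and called genes of other lists are named. For 1 listed gene the results are not reported here. Same-numbered libraries of the groups deviated with correlations of −0.166, −0.155 and −0.0082 over 15131 genes. These gave no sign of pairs by number, but 3 libraries per group cannot exclude them.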

Additional observations from a re-analysis of the deposited data

How the results depend on the processing

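C7 was called in every alternative run except edgeR. Members called numbered 0 with edgeR, 2 with total-count scaling, with a mean of at least 100 (C7 and Colec12, 1 of them lower), with the replicate block and with 1 surrogate variable (C7 and Clu, both higher), and 3 at an adjusted p under 0.1 (2 higher, 1 lower). Leaving out 1 library gave 1 to 6 members (1 to 2 higher, 0 to 4 lower). Of all genes tested 2.1% were called, against 0.186% with edgeR, 2.2% with total-count scaling, 3.19% with a mean of at least 100, 1.61% with the block, 1.68% with the surrogate variable, 2.93% at an adjusted p under 0.1 and 1.45% to 3.52% without 1 library. The correlations of same-numbered libraries gave no sign of pairing, which they cannot exclude. The cause of these differences was not tested.

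Of 286 alternative changes of 18 genes, 248 kept direction and side of the threshold, 13 passed it, 17 no longer did and 8 changed sign, none of these 8 with a call. Without 1 library, C3 ranged from −0.21 to 0.036, Serping1 from −0.22 to 0.0093, C4b from −0.26 to 0.095 and Cfb from −0.59 to 0.090, each above 0 without vehicle replicate 2, and C4b also (0.0059) without IC replicate 1. With 1 surrogate variable, which mainly marks vehicle replicate 2, C3 was at 0.032, C4b at 0.087 and Cfb at 0.071.

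No other complement gene was called by DESeq2 with any alternative, by edgeR or by limma-voom. C1q and TNF superfamily genes called numbered 1 (C1qtnf3, lower) with edgeR, limma-voom and 1 surrogate variable, and 1 lower beside 1 higher (Col8a2) with total-count scaling. Col8a2 was also the 1 called higher with the replicate block and at an adjusted p under 0.1. Without 1 library, 1 to 3 were called (0 to 2 higher, 1 to 2 lower). Coagulation genes called numbered 0 with edgeR and limma-voom, 1 with a mean of at least 100 (0 lower), and 2 lower with the replicate block (0 higher) or at an adjusted p under 0.1 (1 higher). Without 1 library, 1 to 3 were called (0 to 1 higher, 1 to 2 lower).

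Members at few counts (C8g, Cfd, Cfi, C5ar1, C5ar2, Masp2, Colec11) are limited by depth, and 3 libraries per group limit the others.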
